A study of Mus musculus with 16 samples.

Results

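Splenic memory B cells of mice with 1 Zfp318 reporter allele were compared by RNA sequencing according to whether they carried the red fluorescent protein tdTomato. The 8 libraries were taken by their labels, 4 of tdTomato-positive and 4 of tdTomato-negative cells, out of 16 in the series. The other 8 libraries hold the same sorted populations from mice with 2 copies of the allele. They serve below as a second setting of the same contrast, in the test between genotypes and in a fit on all 16 libraries. All 8 heterozygous libraries have the genotype Zfp318ZSDAT/+ AID-Cre B1-8hi GFP on C57BL/6. AID-Cre supplies Cre recombinase, and B1-8hi is a rearranged heavy chain gene that, paired with a lambda light chain, binds the hapten NP. Both groups carry these alleles. The mice were immunized with NP-OVA together with LPS and alum, and spleen cells were taken at day 7. The gate kept B220+ cells that bound the related hapten NIP, had CD38 and lacked CD138, GL7, FAS and IgD. Each library was made with the Smart-seq2 protocol from about 1000 cells. The labels do not spell out the name of the reporter allele or how tdTomato relates to Zfp318 expression in a cell. They give no age, and they do not say whether libraries came from separate mice, so each p-value measures the spread between libraries, which may be technical.

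Memory B cells are long-lived antigen-experienced B cells that can answer a second encounter with antigen, some by entering germinal centers and some by turning into antibody-secreting plasma cells. Zfp318 encodes a zinc finger protein that lets transcription of the heavy chain locus run on past Ighm into Ighd, and so allows mature B cells to make IgD beside IgM. It is also a gene used to tell resting mature and memory B cells from activated ones. Comparing reporter-positive with reporter-negative cells of heterozygous mice asks how memory B cells with and without the reporter differ while 1 Zfp318 allele is left without the insertion.

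The deposited counts summed to 8103128, 11647231, 15435831 and 11497618 in tdTomato-negative libraries 1 to 4 and to 10714819, 12451606, 15750240 and 13287011 in tdTomato-positive libraries 1 to 4. Libraries varied within both groups. The correlation of log2 CPM (a gene's count relative to its library's TMM-scaled total) over tested genes had a median of 0.718 between negative libraries, 0.764 between positive libraries and 0.734 between the groups. More of the 9704 tested genes were without a single count in the negative libraries, at 6.19%, 7.69%, 6.29% and 7.79%, than in the positive ones, at 2.47%, 5.61%, 4.63% and 3.39%. The groups did not overlap in this measure (exact permutation test, two-sided p = 0.0286, the smallest p that 4 against 4 libraries allow). The tested genes passed a filter on these same 8 libraries, so the test is not independent of that choice. Over all genes, 9945, 9730, 9912 and 9663 had a count in negative libraries and 10594, 9887, 10220 and 10592 in positive libraries. By this count the groups overlapped, positive library 2 lying below negative libraries 1 and 3. Total counts did not separate the groups (exact permutation p = 0.457). B cell markers had counts in every library, with Cd79a at 5409, 5281, 5224 and 7412 CPM in the negative and 4983, 3674, 4317 and 5113 CPM in the positive libraries. Every positive library lay below every negative one for Cd79a (log2 fold change -0.37, SE 0.17). That held for 2 of 10 tested B cell identity genes, against 2.23% of all tested genes. Pax5 was lower, from 42.6 to 217 CPM in negative and from 69.6 to 207 CPM in positive libraries.

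**Figure D1:**
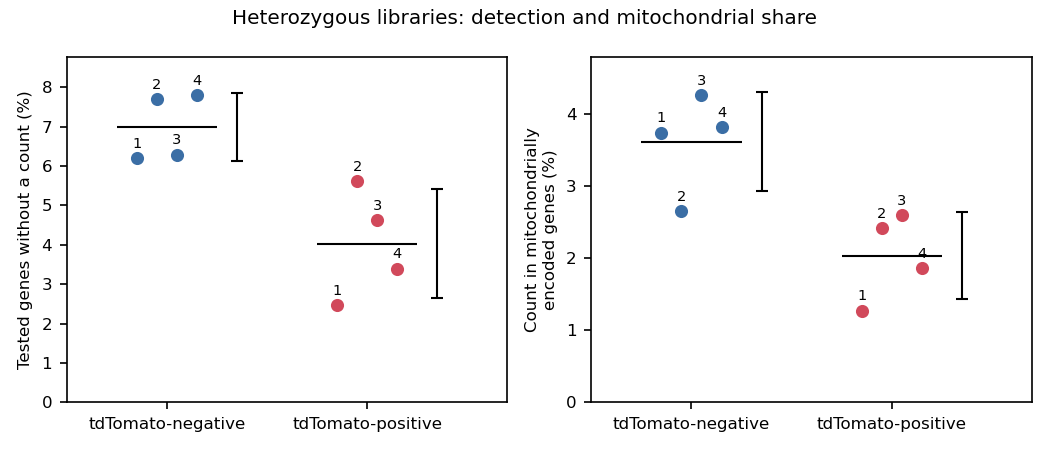
Percent of the 9704 tested genes without a count (left) and percent of all counts in the 13 mitochondrially encoded genes (right) in each heterozygous library. Points are libraries with their number, horizontal lines the mean of 4 and brackets ± 1 SD; in both panels every negative library lies above every positive library.

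No gene passed the test between the groups. By edgeR's quasi-likelihood test with Benjamini-Hochberg adjustment, 0 of 9704 genes (0%) had an adjusted p under 0.05, and 488 (5.03%) had an unadjusted p under 0.05, 241 (2.48%) higher and 247 (2.55%) lower in tdTomato-positive cells. limma voom with sample weights also called 0 genes, with 708 at an unadjusted p under 0.05. DESeq2 called 38 genes (0.392%), 18 higher and 20 lower, of which 37 had groups that did not overlap. A fit of the same contrast on all 16 libraries, which share 1 estimate of the spread with the more uniform homozygous libraries, called 114 of 10687 genes (1.07%), 64 (0.599%) higher and 50 (0.468%) lower. That shared estimate does not allow for the wider spread of the heterozygous libraries. The biological coefficient of variation in the 8-library fit was 0.844. Levels are therefore given library by library, and a gene is called separated where all 4 libraries of one group lie above all 4 of the other. That held for 463 genes (4.77%), with 247 (2.55%) higher and 216 (2.23%) lower in tdTomato-positive cells. The median log2 fold change, positive over negative, was 0.022 over all tested genes.

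**Figure D2:**
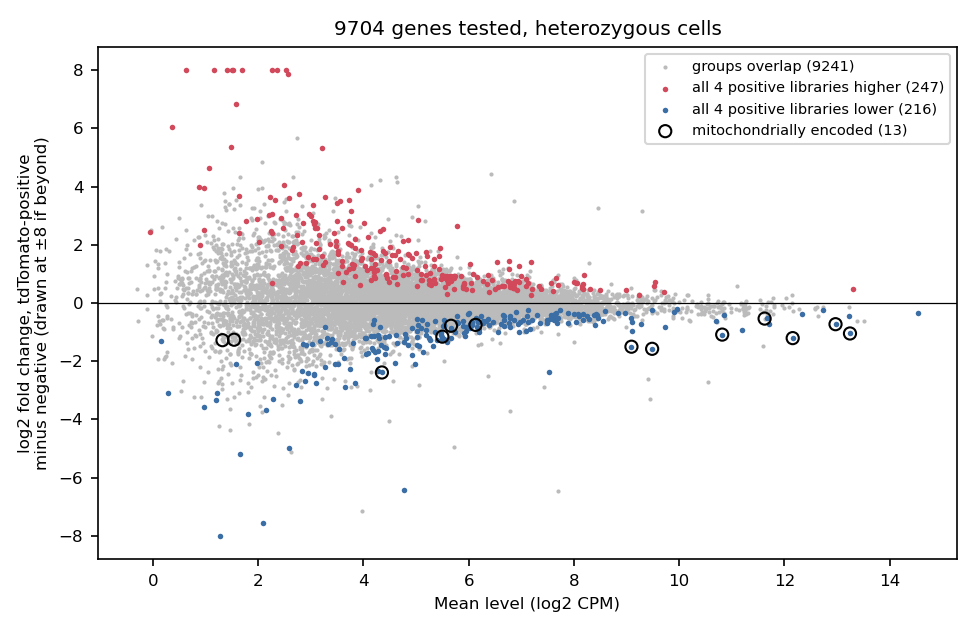
log2 fold change of tdTomato-positive over tdTomato-negative cells against mean level (log2 CPM) for 9704 tested genes. Red and blue points are the 247 genes higher and 216 genes lower in all 4 positive libraries, gray points overlap, and black circles mark the 13 mitochondrially encoded genes, all of which lie below 0.

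The reporter's own gene did not separate the populations. Zfp318 (chromosome 17, 46383731 to 46420920, plus strand, mm10) stood at 76.0, 162, 122 and 139.9 CPM in the negative and 116, 89.2, 99.4 and 128 CPM in the positive libraries. Negative libraries 2 and 4 were the highest of the 8 and negative library 1 the lowest, so the groups overlapped. Its log2 fold change was -0.21 (SE 0.27, 95% interval -0.79 to 0.37, edgeR adjusted p = 1), and lay between -0.39 and -0.06 when each library was left out in turn. In the homozygous libraries the gene was near 0, at 5.49, 0.44, 1.38 and 2.04 CPM in negative and 2.69, 2.78, 0.87 and 1.17 CPM in positive cells.

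None of the 6 tested genes listed for the sort gate was separated or had an adjusted p under 0.05. Ighm is on that list, although the gate described above does not name IgM. It had an edgeR unadjusted p of 0.0253, and its levels follow with the antibody genes. Ptprc, which encodes the protein that carries B220, had a log2 fold change of 0.10 (SE 0.17), and Cd38 one of 0.10 (SE 0.28). Fas, the death receptor whose protein the gate excluded, ranged from 12.4 to 92.4 CPM in negative and from 31.8 to 99.99 CPM in positive libraries. Ighd stood at 1102, 864, 861 and 1037 CPM in negative and 1104, 779.9, 869.6 and 1088 CPM in positive libraries, a log2 fold change of -0.01 (SE 0.17), although the gate excluded cells with surface IgD. Sdc1, which encodes the CD138 excluded by the gate, was without a count in 3 negative libraries and 1 positive library and at most 17.4 CPM in the others.

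The clearest group was the 13 genes encoded by mitochondrial DNA, which make core subunits of respiratory complexes I, III and IV and of ATP synthase. All 13 were tested and all 13 had a log2 fold change below 0, with a median of -1.15 and a range from -2.39 to -0.53. In 8 of the 13 every tdTomato-positive library lay below every negative one, against 2.23% of all tested genes. The same libraries were lowest and highest in most of the 13 genes, so these 8 are not independent observations. None passed the edgeR test on the 8 libraries, 10 had an unadjusted p under 0.05, DESeq2 called 5 and the 16-library fit called 6, all lower. These genes together took 3.74%, 2.65%, 4.26% and 3.82% of the counts in negative libraries 1 to 4. They took 1.27%, 2.42%, 2.6% and 1.86% in positive libraries 1 to 4, so that the groups did not overlap.

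Complex I subunits included the largest differences. mt-Nd1 (chromosome M, 2751 to 3707 of the mitochondrial genome) stood at 6431, 4538, 7612 and 6937 CPM in negative and 1732, 3393, 3347 and 2593 CPM in positive libraries. Every positive library was below the lowest negative one, and the log2 fold change was -1.21 (SE 0.23, edgeR adjusted p = 0.456, DESeq2 adjusted p = 3.05e-05). mt-Nd2 stood at 1131, 648, 1439 and 1076 CPM in negative and 200.2, 397, 511 and 335 CPM in positive libraries. It too was separated, at -1.57 (SE 0.29, edgeR adjusted p = 0.456, DESeq2 adjusted p = 3.05e-05). mt-Nd6, the complex I subunit read from the other strand, stood at 591, 605, 1160.5 and 873 CPM in negative and 136, 313, 437 and 255 CPM in positive libraries, a log2 fold change of -1.50 (SE 0.33). mt-Nd4 and mt-Nd3 were also separated, at -1.08 and -2.39, whereas mt-Nd5 overlapped, at -0.53 (SE 0.22).

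Other complexes followed the same direction. mt-Co1, the catalytic subunit of cytochrome c oxidase, stood at 13887, 8363, 14636 and 15549 CPM in negative and 3958, 7410.2, 8296 and 5729 CPM in positive libraries. The nearest libraries almost touched, at 8363 and 8296 CPM, and the log2 fold change was -1.05 (SE 0.24). mt-Cytb of complex III and mt-Atp6 of ATP synthase were separated at -0.73 and -1.15. mt-Co2, mt-Co3, mt-Nd4l and mt-Atp8 overlapped between the groups, the last of them at under 5 CPM in every library. Positive library 1 was the lowest of all 8 in 12 of the 13 genes and negative library 3 the highest in 11. Leaving out single libraries kept the median of the 13 genes between -1.28 and -0.98. Mitochondrial genes have near copies in nuclear DNA, and how featureCounts treated multiply mapped reads is unknown here, so their absolute levels are uncertain.

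**Figure D3:**
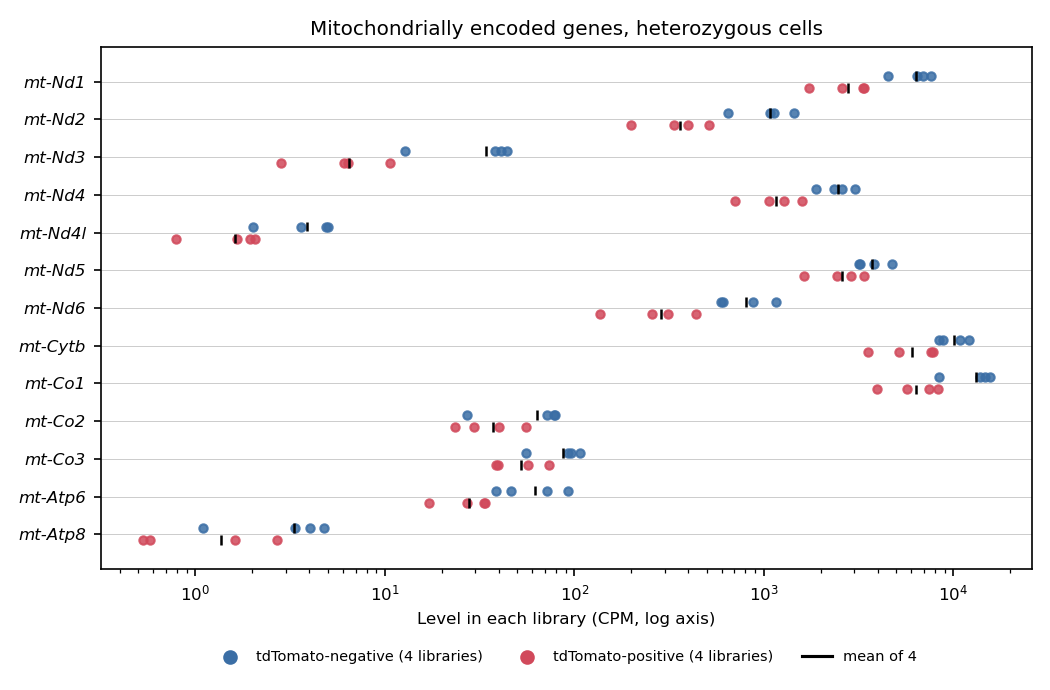
Level of the 13 mitochondrially encoded genes in each heterozygous library (CPM, log axis); blue points are negative, red points positive libraries and black ticks the mean of 4. In 8 genes, mt-Nd1 among them at 4538 CPM or more against 3393 CPM or less, the colors do not mix.

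The same contrast in homozygous cells lacked this pattern. There the 12 tested mitochondrial genes had a median log2 fold change of 0.10 and none was called, and their share of counts was 1.44%, 1.56%, 1.61% and 1.47% in negative and 1.63%, 1.62%, 1.59% and 1.48% in positive libraries. The difference between genotypes was tested as an interaction on all 16 libraries, which called 13 of 10687 genes (0.122%). mt-Nd1 (heterozygous minus homozygous effect -1.38, SE 0.25, edgeR adjusted p = 0.0401) and mt-Nd2 (-1.81, SE 0.33, adjusted p = 0.0401) were among them. Without positive library 4 both missed the threshold (edgeR adjusted p = 0.0579). Genotype and count table coincide in this design, so an effect of how each set of libraries was made cannot be told apart from genotype. The mitochondrial share and the percent of tested genes without a count were both higher in every negative library. Among negative libraries they did not run together: library 2 had the lowest share at 7.69% without a count, and library 3 the highest at 6.29%. Among positive libraries, library 1 was the lowest in both. The part of detection in the result was not tested.

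Nuclear genes for mitochondrial proteins gave smaller values. Of 54 tested nuclear respiratory chain genes 44 lay below 0, with a median of -0.18 and a range from -0.63 to 0.28, and none was separated or called. The median was -0.10 without negative library 4, -0.11 without positive library 1 and -0.29 without negative library 1. Ndufa1, a complex I subunit, stood at 173, 198, 262 and 236 CPM in negative and 107, 124, 146 and 183 CPM in positive libraries, and the groups overlapped. Among 28 tested genes of mitochondrial dynamics and upkeep the median was 0.11, and Clpp, the matrix protease subunit, gave -0.84 (SE 0.28).

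Antibody genes formed a second group of lower values. Of 13 tested genes, the constant regions and Jchain, 12 lay below 0, with a median of -0.63, and 2 were separated, both lower. Over all tested genes 51.6% lay above 0 and 2.23% were separated and lower. The median was -1.02 without positive library 1. Iglc1 is the constant region of lambda-1 light chains, the chain with which the B1-8 heavy chain binds NP. It stood at 3474, 2971, 2580.3 and 3263 CPM in negative and 1670.3, 1504, 2118 and 1191 CPM in positive libraries. All positive libraries lay below the lowest negative one, with a log2 fold change of -0.92 (SE 0.19, edgeR adjusted p = 0.568, DESeq2 adjusted p = 0.000333). In homozygous cells Iglc1 had a log2 fold change of 0.11, and the interaction passed (adjusted p = 0.0429, difference -1.02, SE 0.19). It missed the threshold without negative library 4 or positive library 1, 2 or 4 (edgeR adjusted p from 0.0504 to 0.0793).

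Further light and heavy chains were less uniform. Iglc3 was separated, at 1944, 1567, 1795 and 2741 CPM in negative and 1498, 1068, 1355 and 1362 CPM in positive libraries (log2 fold change -0.61, SE 0.19). Its sequence is close to that of Iglc2, and reads may be shared between them; Iglc2 stood at 12412, 1566, 2201 and 1904 CPM in negative libraries, of which library 1 was far above the rest, and at 1805, 1245, 2041 and 1462 CPM in positive ones. Ighm, the IgM heavy chain, stood at 20752, 14194, 9921 and 11322 CPM in negative and 12906, 7852, 8057 and 8018 CPM in positive libraries. Only positive library 1 reached into the negative range, and the log2 fold change was -0.61 (SE 0.24). Igkc overlapped at -0.63 (SE 0.33). Ighg2c stood at 15.7, 27.4, 4971 and 45.1 CPM in negative and 106, 89.6, 41.0 and 280.1 CPM in positive libraries, with negative library 3 far above the other 7.

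Most tested genes of antibody secretion and of protein folding in the endoplasmic reticulum also had fold changes below 0. Mzb1, a chaperone that helps assemble and secrete IgM, stood at 1069, 794, 1356 and 1134 CPM in negative and 659, 536, 571 and 684 CPM in positive libraries. It was separated, with a log2 fold change of -0.83 (SE 0.19, edgeR adjusted p = 0.568, DESeq2 adjusted p = 0.00305). Jchain, which joins IgM and IgA into polymers, stood at 390.3, 218, 669 and 191 CPM in negative and 78.1, 205, 152 and 144 CPM in positive libraries, and positive library 2 lay within the negative range. Hsp90b1, the endoplasmic reticulum HSP90, gave -0.82 (SE 0.29), Creld2 -1.05 (SE 0.38) and Manf -0.59 (SE 0.21), all with overlap. Of 25 tested folding genes 20 lay below 0 with a median of -0.31, which was -0.18 without negative library 3. Of the 25, 1 was separated and higher and 0 separated and lower, where all tested genes gave 2.55% and 2.23%. Fold changes in this list ranged from -0.86 to 2.34 on the log2 scale. Of the regulators of plasma cells, Prdm1 stood at 6.20, 48.5, 1.44 and 0 CPM in negative and 15.5, 9.90, 11.6 and 0 CPM in positive libraries, with overlap and a log2 fold change of -0.60 (SE 1.66), and Xbp1 overlapped at -0.38 (SE 0.31). Irf4 and Tnfrsf13b, the receptor TACI, were separated in the other direction, at 0.87 (SE 0.53) and 0.64 (SE 0.25). The summed level of the plasma cell markers Sdc1, Prdm1, Jchain and Xbp1 ranged from 271 to 871 CPM in negative and from 225 to 306 CPM in positive libraries. In such bulk samples fewer cells of a type and less RNA per cell cannot be told apart.

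Antigen presentation by MHC class II made up the third group. Among 15 tested members 7 were separated, all lower in tdTomato-positive cells, against 2.23% of all tested genes, and the list's median was -0.23 (-0.14 without negative library 4). These differences were small. H2-DMb1, a chain of the H2-DM peptide loading complex, stood at 350.5, 292, 333 and 314 CPM in negative and 197, 213, 222 and 183 CPM in positive libraries. The groups were well apart, with a log2 fold change of -0.66 (SE 0.17, edgeR adjusted p = 0.672, DESeq2 adjusted p = 0.0323), and the interaction with genotype passed (adjusted p = 0.0401, difference -0.89, SE 0.16), though not without positive library 4 (adjusted p = 0.0579). H2-Ab1, the beta chain of I-A, stood at 10945, 9763, 11168 and 12591 CPM in negative and 8189.6, 8067, 7509 and 8711 CPM in positive libraries (-0.45, SE 0.14, edgeR adjusted p = 0.752, DESeq2 adjusted p = 0.0301). Cd74, the invariant chain, gave -0.35 (SE 0.14), and H2-Aa, H2-DMa, H2-Ob and the protease gene Ctss lay between -0.31 and -0.21. Ciita, the coactivator that drives transcription of these genes, lay the other way, at 143, 101, 90.0 and 63.9 CPM in negative and 250.4, 155, 192 and 140.1 CPM in positive libraries. Positive library 4 lay just within the negative range, and the log2 fold change was 0.89 (SE 0.28, edgeR adjusted p = 0.827). H2-DMb1 and H2-DMb2 are close copies between which reads may be divided, and H2-DMb2 overlapped at -0.30 (SE 0.21). Macrophages express class II genes too, and their transcripts summed to 615 to 1580 CPM in negative and 183 to 924 CPM in positive libraries; their part in these differences was not tested.

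MHC class I genes were mixed. H2-T23, which encodes the nonclassical molecule Qa-1, was separated and lower at -0.53 (SE 0.16), whereas the peptide transporter Tap1 was separated and higher, at 271, 178, 285 and 222 CPM in negative and 354, 310.4, 339 and 348 CPM in positive libraries (0.50, SE 0.19). The median of the 16 tested members was -0.13.

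**Figure D4:**
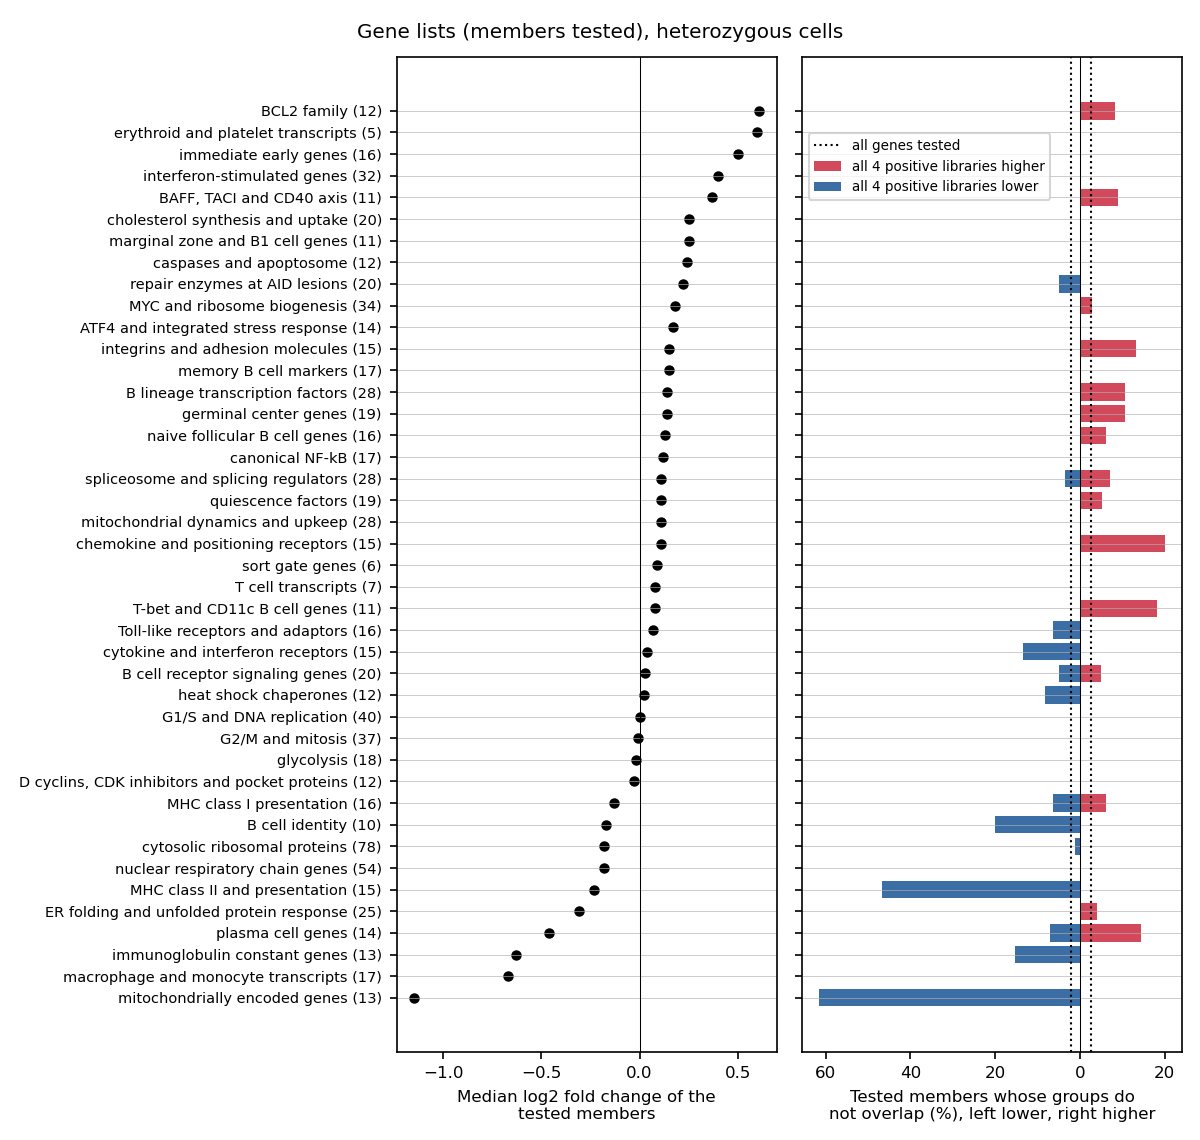
Median log2 fold change of the tested members (left) and percent of tested members whose groups did not overlap (right; red higher, blue lower in positive cells) for the gene lists with at least 5 tested members, whose number is in brackets. Dotted lines give the same percent over all tested genes, 2.55% higher and 2.23% lower; mitochondrially encoded genes (8 of 13) and MHC class II (7 of 15) reach farthest.

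Receptors that position B cells in the follicle were among the genes higher in tdTomato-positive cells. Cxcr5, the receptor for the follicular chemokine CXCL13, stood at 195, 114, 115 and 149 CPM in negative and 322, 232, 262 and 225 CPM in positive libraries. It was separated, with a log2 fold change of 0.86 (SE 0.23, edgeR adjusted p = 0.748, adjusted p = 0.0251 in the edgeR fit on 16 libraries). S1pr2, which holds germinal center B cells in place, stood at 25.4, 31.2, 13.6 and 4.29 CPM in negative and 76.0, 77.0, 86.2 and 34.2 CPM in positive libraries (1.88, SE 0.56). Cnr2, a cannabinoid receptor used by marginal zone B cells to stay in the spleen, was likewise separated at 1.70 (SE 0.53). Other receptors were not, among them Ccr6 at -0.14, Ccr7 at 0.11, Gpr183 at -0.11 and S1pr1 at -0.29. In total, 3 of 15 tested receptors were separated and higher, against 2.55% of all tested genes, none was separated and lower, and the median was 0.11.

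Among 28 tested lineage transcription factors, 3 were separated, all higher, where 2.55% of all tested genes were separated and higher. Spib, an ETS factor of mature B cells, stood at 132, 71.4, 66.2 and 51.8 CPM in negative and 356, 163, 143 and 183 CPM in positive libraries. Negative library 1 came close to the lowest positive one, and the log2 fold change was 1.40 (SE 0.36, edgeR adjusted p = 0.672, adjusted p = 0.0299 in the edgeR fit on 16 libraries). Ikzf3, which encodes Aiolos, gave 0.54 (SE 0.25), and the third was Irf4. Bcl6, the master regulator of germinal center B cells, stood at 227, 392, 318 and 406 CPM in negative and 163, 261, 228 and 192 CPM in positive libraries, with overlap and a log2 fold change of -0.67 (SE 0.23). Bach2, a repressor of plasma cell fate that favors memory, gave -0.48 (SE 0.27) with overlap.

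Immediate early genes, which are switched on within minutes of receptor signaling, lay above 0 in all 16 tested members with a median of 0.50, beside 51.6% of all tested genes above 0. None was separated or called, and 5 had an unadjusted p under 0.05. Cd83 stood at 89.8, 102, 82.8 and 87.3 CPM in negative and 232, 224, 118 and 100.4 CPM in positive libraries. Positive libraries 1 and 2 were high and library 4 lay within the negative range, with a log2 fold change of 0.90 (SE 0.29). Nr4a1, a gene induced by antigen receptor signaling, stood at 0, 5.70, 17.7 and 0 CPM in negative and 40.0, 130.2, 10.3 and 57.8 CPM in positive libraries, a wide spread in both. Zfp36 gave 0.46 (SE 0.20) and Myc 0.42 (SE 0.46). Egr1 and Ier5 also overlapped, at 1.60 (SE 0.91) and 1.12 (SE 0.51).

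BCL2 family and interferon genes showed the same lean. The BCL2 family, which holds survival and death genes, had a median of 0.61 over 12 tested members (0.31 without positive library 2). Of these 1 was separated and higher, against 2.55% of all tested genes. This was Mcl1, a survival factor on which activated and memory B cells depend, at 97.1, 96.9, 93.6 and 67.7 CPM in negative and 201, 115, 221 and 132 CPM in positive libraries (0.91, SE 0.27, edgeR adjusted p = 0.749). Bcl2 itself gave -0.06 (SE 0.41). Interferon-stimulated genes lay above 0 in 27 of 32 tested members with a median of 0.40 (0.26 without negative library 3), but none was separated and none had an unadjusted p under 0.05. Several members of these lists were at a few CPM, with more libraries at 0 in the negative group. In that group tested genes without a count were more frequent. The part of detection in these medians was not tested.

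Cytosolic ribosomal protein genes lay below 0 in 62 of 78 tested members, by little. Their median was -0.18, and ranged from -0.36 without negative library 1 to -0.10 without negative library 4. Rpsa, a small subunit protein, was the only one of the 78 separated, where 2.23% of all tested genes were separated and lower. Its levels were 3239, 3535, 4567 and 5474 CPM in negative and 2200.3, 2015, 2843 and 3083 CPM in positive libraries (-0.73, SE 0.20, edgeR adjusted p = 0.749, DESeq2 adjusted p = 0.04). Among splicing genes Prpf8, the core protein of the spliceosome, was separated and lower at -0.77 (SE 0.18, edgeR adjusted p = 0.568, DESeq2 adjusted p = 0.0175). Srsf5, a splicing regulator, was separated and higher at 0.67 (SE 0.20).

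No difference was detected in cell division genes. The 40 G1/S and replication genes had a median log2 fold change of 0.00 and a range from -0.69 to 0.72, and the 37 tested G2/M genes had a median of -0.01. None of them was separated, and 1 had an unadjusted p under 0.05, namely Cdk1 at -0.996 (SE 0.45). In homozygous cells the medians were -0.41 and -0.66, and 9 G1/S and 10 G2/M genes fell by edgeR's test, which called 2.37% of all genes tested there. The interaction called none of the members of either list.

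No marker of memory B cells set the groups apart. None of 17 tested memory markers was separated or had an unadjusted p under 0.05. Zbtb32, a repressor that restrains memory recall responses, stood at 5.96, 13.1, 34.5 and 99.3 CPM in negative and 77.9, 42.1, 89.4 and 150.1 CPM in positive libraries, with a log2 fold change of 1.23 (SE 0.70). In homozygous cells it fell by 1.05 on the log2 scale (edgeR adjusted p = 5.61e-07), and the interaction did not pass (adjusted p = 0.289). Of 19 tested germinal center genes 2 were separated and higher, S1pr2 and Nuggc, against 2.55% of all tested genes. Nuggc, a nuclear GTPase of germinal center B cells, gave 0.73 (SE 0.25), while Mef2b, Fas and Gcsam overlapped.

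Itgax had the largest fold change among the listed genes. It encodes CD11c, an integrin chain that marks atypical, T-bet-dependent memory B cells as well as dendritic cells and macrophages. Itgax (chromosome 7, 128129547 to 128150657) had 165, 127, 189 and 131 counts in positive libraries 1 to 4. In the negative libraries it had 0, 0, 2 and 0 counts, so nearly all of its counts came from positive cells. The ratio of 612 to 2 counts, corrected for library size, was 251 (95% counting interval 69.2 to 2080, which covers counting error only). edgeR on the 8 libraries gave an adjusted p of 0.576, DESeq2 one of 0.000102 and the 16-library edgeR fit one of 3.91e-05. In homozygous cells the gene went the other way, at 36.7, 29.9, 29.4 and 22.9 CPM in negative and 10.0, 11.9, 10.8 and 19.1 CPM in positive libraries (log2 fold change -1.18, edgeR adjusted p = 0.0015). The interaction passed at 8.91 (SE 0.89, edgeR adjusted p = 7.4e-05), a fitted value that depends on how counts near 0 are handled.

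Other genes of CD11c-positive B cells overlapped between the groups, Itgb1 apart. Tbx21, which encodes T-bet, stood at 10.2, 15.8, 20.7 and 3.72 CPM in negative and 21.0, 12.1, 0 and 18.2 CPM in positive libraries, and Zeb2, Fcrl5 and Cxcr3 overlapped at -0.17, 0.59 and 0.04. Itgb1, the beta-1 integrin chain, was separated at 0.94 (SE 0.38). Dendritic cell and macrophage markers were compared beside Itgax, since both cell types also make CD11c. The 10 listed dendritic cell transcripts summed to 69.1 to 129 CPM in negative and 82.5 to 133 CPM in positive libraries, and only 2 of them were tested. Of their defining members Xcr1 was without a count in all 8 libraries and Zbtb46 was at most 1.52 CPM. Sirpa, a receptor of dendritic cells and macrophages, stood at 0, 0, 0.41 and 0 CPM in negative and 10.2, 6.73, 18.6 and 0.14 CPM in positive libraries, so that it was higher in 3 of the 4 positive libraries. The 18 macrophage and monocyte transcripts summed to 615 to 1580 CPM in negative and 183 to 924 CPM in positive libraries. Among them Csf1r was at 32.0, 70.7, 32.4 and 0 CPM in negative and 18.0, 1.24, 13.1 and 0 CPM in positive libraries, while Cd163 was without a count in the negative libraries and at 7.58, 0, 0.5 and 4.34 CPM in the positive ones. The part of such cells in the Itgax result was not tested. Beyond Itgax, 15 genes had counts in all 4 positive and in no negative library, and 3 had the reverse. Detection of tested genes was also lower in the negative libraries, and its part in this imbalance was likewise not tested.

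Over all genes, the largest separated differences among well-expressed genes (mean log2 CPM of at least 5) came from a pool of 240, with 103 higher and 137 lower. The 10 highest are Mapk9, Sun2, S1pr2, Fmnl3, Cbr1, Mkl1, Scd1, Parp9, Nolc1 and Stk24, with log2 fold changes from 1.42 to 2.84. Of these DESeq2 called 3 and the 16-library fit 8, and the homozygous fit 0. Stk24, a kinase of the STE20 family that acts in cell migration, had similar levels within each group, at 71.6, 44.0, 38.7 and 46.5 CPM in negative and 137, 119, 126 and 155 CPM in positive cells. Its log2 fold change was 1.42 (SE 0.27, edgeR adjusted p = 0.456, DESeq2 adjusted p = 0.00185). Mapk9, the kinase JNK2, stood at 13.8, 11.3, 1.71 and 5.05 CPM in negative and 26.3, 87.6, 75.6 and 38.5 CPM in positive libraries (2.84, SE 0.66, edgeR adjusted p = 0.568, DESeq2 adjusted p = 0.0125). Mkl1, a coactivator of serum response factor that links actin to transcription, stood at 23.1, 27.6, 17.8 and 16.6 CPM in negative and 69.5, 34.4, 75.8 and 80.2 CPM in positive libraries (1.61, SE 0.39). The formin Fmnl3, which assembles actin filaments, and Sun2, which ties the nuclear envelope to the cytoskeleton, gave 1.75 and 2.63. The nucleolar protein Nolc1, the fatty acid desaturase Scd1 and the interferon-inducible Parp9 gave 1.45, 1.61 and 1.50.

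The 10 lowest are Slpi, Fbxw7, mt-Nd2, mt-Nd6, Nucb2, Armc5, Map3k15, Fcgrt, Ncoa6 and Dhx36, from -2.37 to -1.26. DESeq2 called 2 of them, the mitochondrial pair, and the 16-library fit 6. Slpi, a secreted inhibitor of serine proteases, stood at 107, 373, 644 and 113 CPM in negative and 66.8, 10.1, 102 and 59.9 CPM in positive libraries. The lowest negative and highest positive library were close, and the log2 fold change was -2.37 (SE 0.75); in homozygous cells Slpi fell by 1.97 (edgeR adjusted p = 0.0113). Fcgrt, the neonatal Fc receptor that recycles IgG and albumin, stood at 59.6, 83.7, 73.8 and 57.8 CPM in negative and 32.8, 13.8, 20.1 and 41.5 CPM in positive libraries (-1.34, SE 0.40). In homozygous cells it rose by 0.70 (edgeR adjusted p = 0.00139), and the interaction passed (adjusted p = 0.0452), though not without negative library 2 (0.0571) or positive library 3 (adjusted p = 0.0758). Fbxw7, a substrate adaptor of a ubiquitin ligase, stood at 23.1, 37.2, 107 and 44.0 CPM in negative and 14.3, 22.4, 18.7 and 10.9 CPM in positive libraries (-1.67, SE 0.52). Map3k15, a stress-activated kinase, stood at 43.6, 49.3, 37.8 and 58.2 CPM in negative and 15.5, 14.2, 15.4 and 24.3 CPM in positive libraries (-1.44, SE 0.40).

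**Figure D5:**
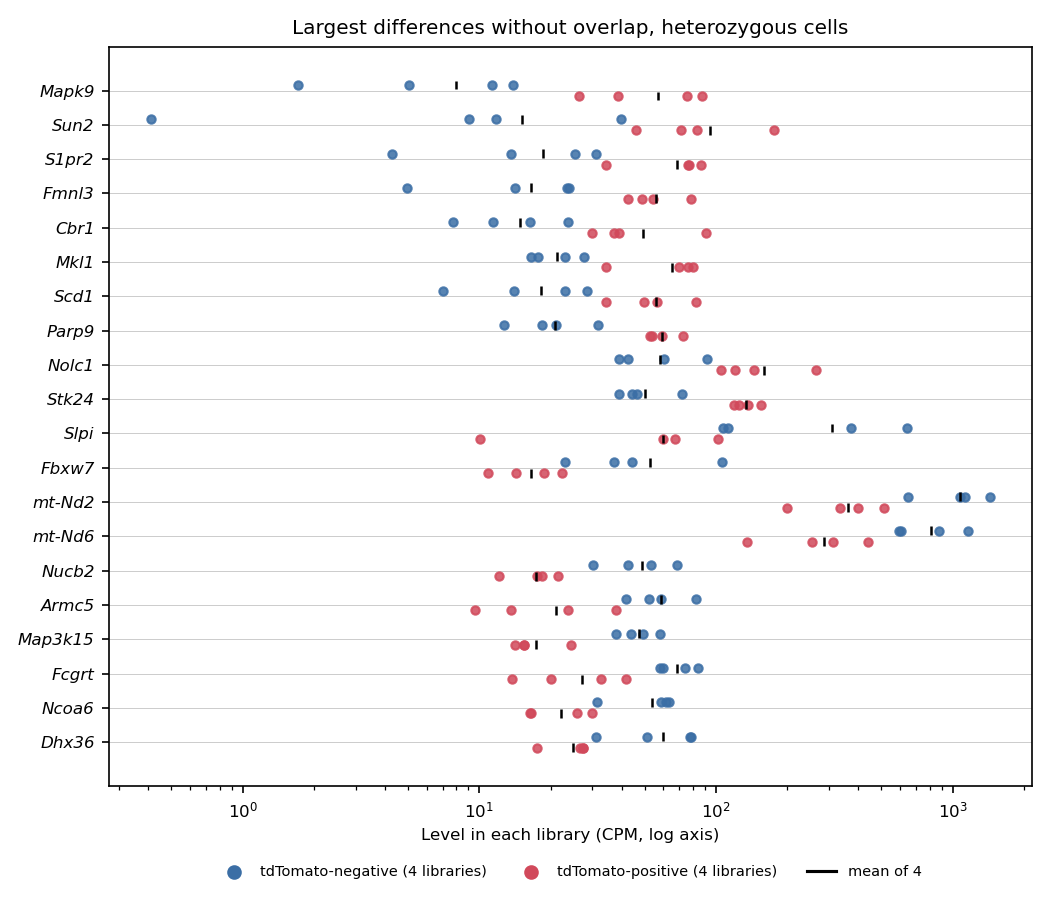
Level in each heterozygous library (CPM, log axis) of the 10 highest and 10 lowest separated genes of mean log2 CPM of at least 5; blue points are negative, red points positive libraries and black ticks the mean of 4. The genes were chosen because the colors do not mix; Stk24 (38.7 to 71.6 against 119 to 155 CPM) is one example.

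Markers of other cell types varied by library. Of 18 macrophage and monocyte transcripts 17 were tested, and 15 lay below 0 with a median of -0.67, which moved to -0.26 without positive library 2 and to -1.33 without positive library 3. C1qc, a complement chain of macrophages, stood at 116, 289, 107 and 43.8 CPM in negative and 91.1, 17.6, 77.1 and 27.5 CPM in positive libraries. T cell transcripts summed to 566 to 850 CPM in negative and 527 to 1140 CPM in positive libraries. Most of this came from Trac and Cd2, at 106 to 406 and 203 to 389 CPM in negative and 118 to 457 and 302 to 365 CPM in positive libraries, while Cd3e was at 0 in 1 negative and 3 positive libraries. In negative library 3 Trac stood at 298 CPM, where Cd3e, Cd3d and Cd3g were all at 0. Whether Trac and Cd2 came from T cells was not tested, so these sums do not measure T cell content. Of the neutrophil markers S100a9 was at 0 in 3 negative libraries and at 135 CPM in negative library 3. The 9 NK cell transcripts summed to 0 to 15.8 CPM in negative and 0 to 149 CPM in positive libraries. Of them 4, Ncr1 and Gzma included, were without a count in all 8 libraries. Positive library 3 held Nkg7 at 126, Klrk1 at 15.5 and Klrd1 at 7.38 CPM. That library also had the highest Cd8b1, Cd3d, Cd3g and Cd3e of the 8, at 41.73, 31.66, 23.15 and 11.14 CPM. These are T cell transcripts, whereas Cd4 was without a count in all 8. The part of such cells in the results above was not tested.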

How the data were processed

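Trim Galore, STAR 2.2.0, featureCounts and mm10 are named in the submitters' processing notes. The strand setting and the handling of pairs and multiply mapped reads are not given in the sources used here. The deposited values are raw counts per gene symbol, not normalized by the authors. Of 22680 rows, 4 that share 2 duplicated names were left out, leaving 22676; 26 symbols have a date-like form. Another 20 columns of per-sample values (per-million values and group averages) were not used. Counts have no molecular identifiers, and the counting interval of the Itgax ratio covers counting error only. The interval of the Zfp318 fold change comes from edgeR's estimate of the spread between libraries.

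Counts were scaled by TMM, filtered by filterByExpr and tested on the 8 libraries with edgeR 4.0.16 (robust quasi-likelihood test, R 4.3.3) with Benjamini-Hochberg adjustment over all 9704 tested genes. The 6 residual degrees of freedom come from 4 libraries a group. The interaction used all 16 libraries. Alternatives were DESeq2 1.42.0, limma 3.58.1 voom with sample weights, other scalings and filters, the replicate block, all 16 libraries and each library left out. The procedure was tested on simulated data. Members, lists and tests were chosen with earlier results of these data known. Named genes are Zfp318, the sort gate genes, the 10 largest separated differences a direction (mean log2 CPM of at least 5, since none passed), and up to 4 members of each list with the smallest p; others named for context were chosen after their values were seen. A member of the sort gate and germinal center lists is not reported here. Positions come from GENCODE by symbol (88.7% of 22676 symbols matched).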

Additional observations from a re-analysis of the deposited data

Results flagged for a closer look

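Among 64 groups of 4 libraries, 5 had 1 library far from the other 3, where chance gives about 1 in 20. These were Cbr1 in positive library 2 (90.8 CPM), Map3k15 in positive library 4 (24.3 CPM), Ncoa6 in negative library 3 (31.5 CPM), Dhx36 in positive library 1 (17.5 CPM) and mt-Co2 in negative library 1 (27.2 CPM). In Cbr1 and Dhx36 that library lay away from the other group, and in the other 3 genes it lay toward it.

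The effect of tdTomato differed between heterozygous and homozygous cells by the edgeR interaction test in 6 genes named above. The heterozygous minus homozygous log2 difference was 8.91 for Itgax, -2.04 for Fcgrt, -1.81 for mt-Nd2, -1.38 for mt-Nd1, -1.02 for Iglc1 and -0.89 for H2-DMb1. Over 13 alternatives the adjusted p ranged from 1.52e-12 to 0.262 for Itgax (called in 12), from 3e-04 to 0.211 for Fcgrt (called in 9) and from 4.3e-05 to 0.191 for Iglc1 (called in 8). It ranged from 6.84e-06 to 0.163 for mt-Nd1 and from 7.99e-06 to 0.117 for mt-Nd2 (each called in 11), and from 4.78e-06 to 0.166 for H2-DMb1 (called in 10). The highest of each came from the replicate block or, for Itgax and H2-DMb1, from voom. Genotype and count table coincide, and the homozygous libraries are more uniform, which the shared estimate of spread does not allow for.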

How the results depend on the processing

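The count of genes called between tdTomato-positive and tdTomato-negative heterozygous cells, 0 by edgeR, was 1 without the filter (Igkv4-50, a variable segment), 38 by DESeq2 and 114 with all 16 libraries; with each library left out it was 0 to 0. The interaction count of 13 became 194 by DESeq2, 7 by voom (4 shared) and 2 with the replicate block (1 shared), and 10 to 41 with each heterozygous library left out, with 41, 28, 33 and 28 without negative libraries 1 to 4. Which cause lies behind these counts was not tested. Named genes that changed sign were all near 0: with each library left out Cd38 gave -0.051 to 0.27, Fas -0.25 to 0.38 and Ighd -0.083 to 0.078, and Ighd gave 0.020 by voom. Over all genes, the median shift in log2 fold change was -0.001 with RLE size factors and 0.004 with upper quartile scaling. It was 0.03 with voom and 0.027 with the replicate block.

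No pairing by replicate number was seen, though 4 libraries a group are too few for this check to exclude one. Deviations of same-numbered libraries from their group means correlated at 0.079, -0.008, 0.013 and -0.004, and 3 of 8 libraries correlated best with their own number. With the number as a block edgeR called 0 genes, 560 at an unadjusted p under 0.05. Lower detection of tested genes in the negative libraries limits what can be said of genes at a few CPM. TMM factors were 1.04, 0.94, 0.948 and 0.915 in negative and 1.063, 1.041, 1.018 and 1.046 in positive libraries, with overlap. The part of detection in the lower values of abundant genes, such as antibody, MHC class II and ribosomal protein genes, was not tested.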
